A study of Mus musculus with 10 samples.

Results

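A set of 9 genes, of the 27716 that the matrices share, that make, carry, bind or remove retinoic acid were followed through the cell classes of the embryonic mouse pancreas. They were *Rdh10*, *Aldh1a1* and *Aldh1a2* for synthesis, *Dhrs3* for the return of retinaldehyde to retinol, *Rbp4* and *Stra6* for carriage and uptake, *Crabp1* and *Crabp2* for binding inside the cell, and *Cyp26b1* for breakdown. The members were taken by gene symbol, with no threshold on their values, and all 9 were found in every matrix used.

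Retinoic acid is made from vitamin A in a pair of steps. Retinol dehydrogenases such as RDH10 oxidise retinol to retinaldehyde, and retinaldehyde dehydrogenases of the ALDH1A family oxidise retinaldehyde to retinoic acid, while DHRS3 works in the reverse direction of the first step. RBP4 carries retinol outside the cell, STRA6 is its membrane receptor, CRABP1 and CRABP2 bind retinoic acid in the cytoplasm, and CYP26 enzymes degrade it. Retinoic acid acts through nuclear receptors (RAR and RXR) and is known as a mesoderm-derived signal for pancreas formation and for endocrine and ductal development.

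The data were single-cell RNA-seq counts of unique molecular identifiers (UMIs) from 8 independent libraries of pooled pancreata, each pool from 1 or 2 litters. Swiss Webster pancreata gave 4 libraries made with v1 chemistry (1 at E12.5, 2 at E14.5 prepared as separate batches, and 1 at E17.5) and 3 libraries made with v2 chemistry (E12.5, E14.5 and E17.5, the last run as 2 wells that were summed). Before capture, cells positive for CD140a (PDGFRA), a mesenchymal surface marker, were depleted by sorting from these 3 v2 Swiss Webster libraries, so the mesenchyme in them is what that gate left. The eighth library came from E14.5 embryos that carried Fev-Cre and ROSA26mTmG on a C57BL/6J background. In them a Fev-Cre transgene turns the reporter from membrane tdTomato to membrane GFP, and GFP+ cells and TdTomato+/GFP- cells were sorted. No treatment was given, the Swiss Webster embryos carried no transgene, and they differed in stage, chemistry, gate and batch, with longer enzymatic dissociation at later stages. Totals ran from 15671934 to 127151679 UMIs per matrix, with the 2 v2 E17.5 wells counted apart (102656012 and 94137230 UMIs). Haemoglobin transcripts took 0.0128% of the UMIs in the Fev-Cre library but 60.9% in the v1 E17.5 library. Since embryos were pooled, p-values measure no spread between embryos. In class comparisons, which had the library as a block, they measure how the class difference varied between libraries. Those libraries also differed in stage, chemistry, gate and strain. In stage comparisons most combinations of stage and chemistry had 1 pool, so the spread there mixes pools with disagreement between chemistries.

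Cells were clustered without the 9 genes and without a wider list of retinoid genes, and clusters were named from marker genes. Any gene of the wider list that was also a class marker was not held out. Of 57982 cells kept, 42294 fell in a class compared here, among them 7021 mesothelial-like cells, 11754 cells of other mesenchyme, 1494 vascular smooth muscle (VSM)-like cells, 7888 acinar-like and 7153 ductal-like cells. The endocrine lineage held 1327 Ngn3+-like, 1647 Fev+-like, 2019 alpha-like, 1549 beta-like, 294 delta-like and 148 epsilon-like cells. Since the names come from these markers, their levels describe the classes and test nothing. In the mesothelial-like class of every library 9 or 10 of 10 mesothelial markers were above 10 CPM (the UMIs of a gene over all UMIs of the class, on the usual CPM scale), against 2 to 6 in other mesenchyme. In the acinar-like class 10 to 12 of 12 acinar markers were above 10 CPM, against 5 to 9 in the ductal-like class. Summed, they stood at 14213 to 189321 CPM in acinar-like and 365 to 3006 CPM in ductal-like cells. Clusters that could not be named (up to 11.4% of a library's cells for unnamed epithelium at v2 E12.5) and doublets (0.303 to 6.51% of cells) were left out. A level is given below as the CPM of a gene in the summed UMIs of one class in one library, and intervals are exact 95% Poisson intervals, which cover counting error only. RNA free in the droplets can give a background, which was not estimated here. Levels in immune-like cells are given beside *Rbp4* and *Aldh1a1* for that reason. They are no gauge for *Dhrs3*, which stood at up to 85.6 CPM in those cells.

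**Figure D1:**
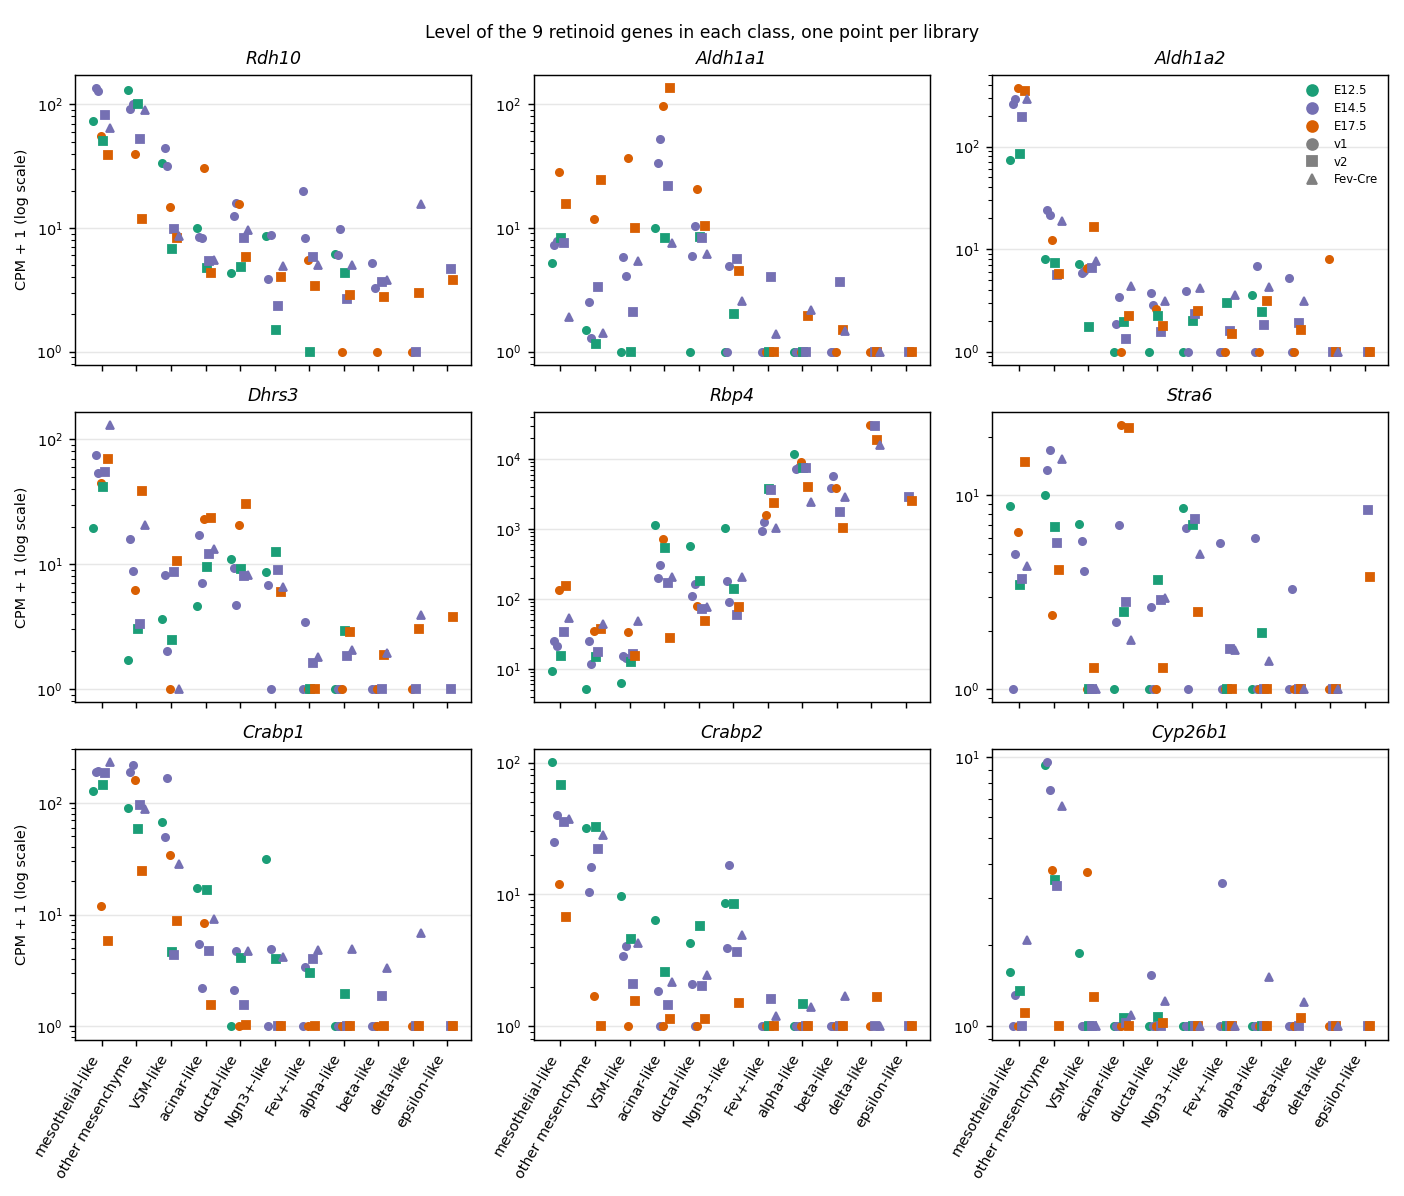
Level of each of the 9 genes (CPM + 1, log axis) in 11 cell classes, with 1 point per library, coloured by embryonic day and shaped by chemistry (v1, v2) or as the Fev-Cre library. Aldh1a2 stands highest in mesothelial-like cells (72.3 to 374 CPM), Rbp4 in the endocrine classes, and Cyp26b1 lies below 9 CPM in other mesenchyme.

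Classes were compared within libraries. A gene counted as called where its adjusted p was under 0.05 and its fold change at least 2. Mesothelial-like cells differed from other mesenchyme in 6 of the 9 genes, where 18.7% of all genes tested were called. *Aldh1a2*, *Dhrs3*, *Aldh1a1* and *Crabp2* were higher (11.0% of all genes were), and *Cyp26b1* and *Stra6* were lower (7.65% of all genes were). VSM-like cells differed from other mesenchyme in 5 genes, all lower (*Rdh10*, *Stra6*, *Crabp1*, *Crabp2* and *Cyp26b1*), where 5.76% of all genes were called and 2.61% were called lower. Against acinar-like and ductal-like cells summed as exocrine epithelium, other mesenchyme differed in 8 of the 9 genes, where 34.4% of all genes were called. Of these, 6 were higher in mesenchyme (18.6% of all genes), and *Aldh1a1* and *Rbp4* were higher in epithelium (15.8% of all genes). Acinar-like cells exceeded ductal-like cells in 3 of 8 genes tested (*Aldh1a1*, *Rbp4* and *Crabp1*), where 15.8% of all genes were called and 6.61% were called higher.

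**Figure D2:**
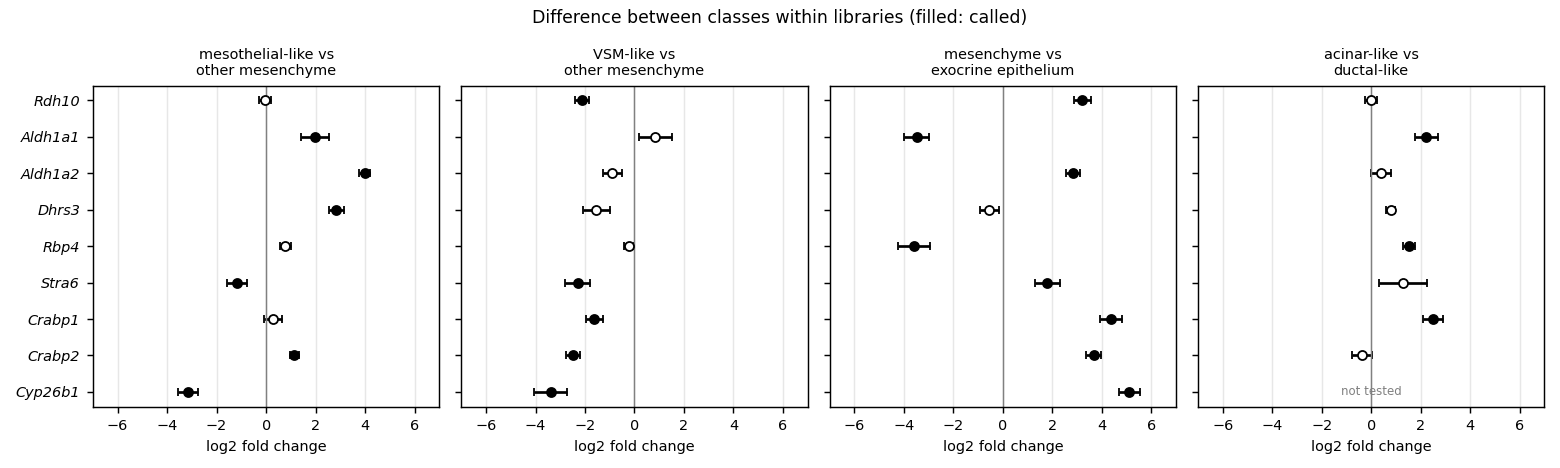
Log2 fold change with its standard error for each of the 9 genes in 4 comparisons between classes of the same libraries. Filled points were called (adjusted p under 0.05 and at least 2-fold) and open points were not. Aldh1a2 lies at 3.98 ± 0.21 for mesothelial-like against other mesenchyme, while Rdh10 lies at -0.06 ± 0.24 in the same comparison.

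*Rdh10*, the retinol dehydrogenase of the first oxidation step, was a mesenchymal and mesothelial transcript. In other mesenchyme the v1 libraries held 131 CPM at E12.5, 90.3 and 99.6 CPM at E14.5 (mean 94.9 ± 6.57, SD, n = 2) and 38.4 CPM at E17.5. The v2 libraries held 98.9, 51.2 and 10.9 CPM at the same stages, and the Fev-Cre library held 89.6 CPM. Acinar-like cells held 3.34 to 29.4 CPM and ductal-like cells 3.32 to 14.9 CPM. Mesenchyme exceeded exocrine epithelium by 3.21 ± 0.34 on the log2 scale (adjusted p = 4.65e-06).

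Mesothelial-like cells carried *Rdh10* at 38.0 to 135 CPM, a range that overlapped that of other mesenchyme. The difference between these classes was -0.06 ± 0.24 (adjusted p = 0.896), an average over libraries that went both ways. *Rdh10* was higher in mesothelial-like cells in 5 libraries and lower in 3, from 0.498 to 3.48 times the level in other mesenchyme. It was lower at E12.5 (71.7 against 131 CPM in v1, 49.2 against 98.9 CPM in v2) and in the Fev-Cre library, and higher at E17.5 (55.0 against 38.4 CPM in v1, 38.0 against 10.9 CPM in v2). VSM-like cells were lower than other mesenchyme in 8 of 8 libraries, by a log2 change of -2.12 ± 0.29 (adjusted p = 0.000254). Between ductal-like and Ngn3+-like cells, the latter being the endocrine progenitors, 6 members could be tested and 4 were called, where 27.1% of all genes were called (12.1% higher and 14.9% lower in Ngn3+-like cells). *Rdh10* was one of them, lower in Ngn3+-like cells at -1.42 ± 0.36 (adjusted p = 0.00426).

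*Aldh1a2*, which encodes the retinaldehyde dehydrogenase RALDH2 that makes retinoic acid in much of the embryonic mesoderm, showed the sharpest class pattern of the synthesis genes. Mesothelial-like cells of the v1 libraries held 72.3 CPM at E12.5, 257 and 288 CPM at E14.5 (mean 272 ± 22.1, SD, n = 2) and 374 CPM at E17.5. Those of the v2 libraries held 83.4, 195 and 349 CPM, and those of the Fev-Cre library held 291 CPM. Other mesenchyme held 4.65 to 23.3 CPM, so the lowest mesothelial-like library stood above the highest library of other mesenchyme.

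Within libraries, *Aldh1a2* was 10.3 to 33.4 times higher in mesothelial-like cells, in 8 of 8 libraries. The fitted log2 difference was 3.98 ± 0.21 (adjusted p = 1.62e-08). It was 3.79 ± 0.21 in the v1 libraries alone and 4.33 ± 0.33 in the v2 and Fev-Cre libraries, which include the CD140a-depleted ones. Acinar-like and ductal-like cells held at most 3.40 CPM, and other mesenchyme exceeded them by 2.83 ± 0.28 (adjusted p = 2.11e-06). In VSM-like cells *Aldh1a2* stood at 0.725 to 15.4 CPM, with a difference from other mesenchyme of -0.89 ± 0.37 (adjusted p = 0.144), and *Dhrs3* gave -1.55 ± 0.54 there (adjusted p = 0.0782). Of 16 alternatives, 4 called *Aldh1a2* lower (over all of them -3.99 to -0.52) and 5 called *Dhrs3* lower (-1.90 to -1.08).

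Counted per cell, with v1 cells thinned to 2000 UMIs and the others to 3000, *Aldh1a2* was seen in 12%, 34.9%, 40.6% and 43.5% of mesothelial-like cells in the v1 libraries at E12.5, E14.5 (2 libraries) and E17.5. Unthinned shares in the same libraries ran from 21.7 to 69.0%. In the v2 libraries the thinned share was 19.9%, 40.3% and 64.1%, and in the Fev-Cre library 57.2%. Ductal-like cells, which should lack the gene, gave 0 to 1.06% in v1 and 0.100 to 1.22% in the other libraries. The median unthinned depth was 3342 to 5436 UMIs in the v1 mesothelial-like cells and 3911 to 5246 in the v1 ductal-like cells. *Rdh10* and *Aldh1a2* UMIs occurred together in 1.75 to 9.62% of mesothelial-like cells, where the product of the single shares gives 1.43 to 9.35%. The joint share was above the product in every library but v1 E17.5, where it was 2.17% against 5.67% (46 cells). The excess was small, such as 7.68% against 7.58% at v2 E14.5 (729 cells) and 1.75% against 1.43% at v1 E12.5 (343 cells). It was not tested, so no tendency to occur together is read from it.

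*Aldh1a1*, a second retinaldehyde dehydrogenase, instead had its highest median level over libraries in acinar-like cells (26.6 CPM). It held 9.04 CPM at E12.5, 32.4 and 50.9 CPM at E14.5 (mean 41.7 ± 13.0, SD, n = 2) and 95.7 CPM at E17.5 in v1 acinar-like cells, and 7.27, 20.7 and 134 CPM in v2. The Fev-Cre library held 6.58 CPM. Ductal-like cells held 0 to 19.6 CPM, VSM-like cells 0 to 35.7 CPM, and immune-like cells at most 3.24 CPM. Acinar-like cells exceeded ductal-like cells by 2.23 ± 0.47 (adjusted p = 0.00194), in 7 of 8 libraries (0.987 to 14.4 times where both held UMIs). The v2 and Fev-Cre libraries alone gave 1.87 (adjusted p = 0.15). The share of cells with a UMI, thinned to 3000 UMIs, was 1.91% of acinar-like and 2.43% of ductal-like cells at v2 E12.5. In Fev-Cre it was 1.66% and 1.52%. It was higher in acinar-like cells in each other library, up to 30.0% against 2.82% at v2 E17.5. *Aldh1a7*, a near-identical paralog, could have taken or lent some of these reads, so the *Aldh1a1* values are less certain than the others. *Aldh1a7* itself was lower in other mesenchyme than in exocrine epithelium (-4.33 ± 0.61) and rose in acinar-like cells from E12.5 to E17.5 (4.11 ± 0.78). It was higher in mesothelial-like cells than in other mesenchyme (4.84 ± 0.71). In mesothelial-like cells it fell from E12.5 to E17.5 (-2.37 ± 0.67), where *Aldh1a1* rose (1.49 ± 0.48). The part of shared reads in these values was not tested.

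Other mesenchyme held almost no *Aldh1a1* before E17.5 (1 to 7 UMIs in each of the libraries of E12.5 and E14.5) and 31 and 15 UMIs in the E17.5 libraries. It lay below exocrine epithelium by a log2 change of -3.48 ± 0.50 (adjusted p = 6.94e-05). Mesothelial-like cells, at 0.918 to 27.5 CPM, exceeded other mesenchyme in 7 of 8 libraries (1.98 ± 0.57, adjusted p = 0.015). That call was lost in 4 of 17 alternatives, without the second v1 E14.5 library (1.59, adjusted p = 0.0508), in the v2 and Fev-Cre libraries alone (1.36, adjusted p = 0.327), on separate UMIs (1.5, adjusted p = 0.068) and without the block (1.14, adjusted p = 0.52). Ngn3+-like cells were lower than ductal-like cells in this gene, at -1.58 ± 0.37 (adjusted p = 0.0028).

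*Dhrs3*, the retinaldehyde reductase, was highest in mesothelial-like cells among the compared classes. They held 18.5 CPM at E12.5, 73.9 and 52.3 CPM at E14.5 and 44.0 CPM at E17.5 in v1. In v2 they held 40.7, 53.3 and 69.1 CPM, and in the Fev-Cre library 129 CPM. Other mesenchyme held 0.703 to 37.4 CPM and was lower in 8 of 8 libraries, so that the difference was 2.83 ± 0.31 (adjusted p = 1.09e-05). Against exocrine epithelium, other mesenchyme differed by -0.54 ± 0.38 (adjusted p = 0.242). Acinar-like cells exceeded ductal-like cells by 0.78 ± 0.19 (adjusted p = 0.00465), which is less than 2-fold. Fev+-like cells, the endocrine precursors that follow the Ngn3+ stage, held at most 2.42 CPM of *Dhrs3*.

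*Rbp4*, the retinol carrier, was above all a transcript of endocrine cells, and before E17.5 also of the exocrine epithelium. Delta-like cells held 30570 CPM at v1 E17.5, 29424 CPM at v2 E14.5, 18934 CPM at v2 E17.5 and 15630 CPM in the Fev-Cre library, the highest level of any class in each of these libraries. Alpha-like cells held 2395 to 11941 CPM and beta-like cells 1025 to 5698 CPM. Fev+-like cells held 943 to 3703 CPM, against 58.0 to 1023 CPM in Ngn3+-like cells.

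The rise from Ngn3+-like to Fev+-like cells was seen in 6 of 6 libraries, 5.14-fold to 61.3-fold, with a log2 change of 3.96 ± 0.42 (adjusted p = 6.9e-06). In this comparison 4 members could be tested and 3 were called, where 20.3% of all genes were called (10.4% higher and 9.96% lower in Fev+-like cells). *Dhrs3* (-3.36 ± 0.66, adjusted p = 0.00122) and *Crabp2* (-3.79 ± 0.76, adjusted p = 0.00133) were the others, both lower in Fev+-like cells. They rest on at most 15 UMIs a library in Ngn3+-like cells for *Crabp2*, and leaving out any one of the v2 or Fev-Cre libraries left 1 member called because these counts then fell under the filter on low counts. Between ductal-like and Ngn3+-like cells *Rbp4* differed by 0.36 ± 0.21 on the log2 scale, which did not pass the test.

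Alpha-like and beta-like cells summed, without the delta-like and epsilon-like classes, exceeded Fev+-like cells in *Rbp4* by 1.52 ± 0.25 (adjusted p = 0.000577, 6 of 7 libraries), where 6.61% of all genes were called and 4.45% were called higher. The size differed between chemistries: 2.45 ± 0.12 in v1 and 0.84 ± 0.16 in the v2 and Fev-Cre libraries, with a difference of -1.60 ± 0.23 (adjusted p = 0.0338). Endocrine cells that could not be named and were left out stood in the v2 and Fev-Cre libraries (301 cells at v2 E12.5, 701 at v2 E14.5, 128 at v2 E17.5 and 317 in Fev-Cre) and in none of the v1 libraries, and their part in this difference was not tested. At v2 E17.5 alpha-like and beta-like cells held 1719 CPM and Fev+-like cells 2338 CPM. Abundant transcripts took a large part of the beta-like UMIs in that library, which lowers the CPM of every other gene. Without them in the total, *Cyp26b1* in these beta-like cells stood at 0.132 in place of 0.0715 CPM. Their part in the lower *Rbp4* level was not tested. With delta-like and epsilon-like cells added, a choice made after seeing the data, that library held 3013 CPM, the summed cells were higher in 7 of 7 libraries (1.88 ± 0.26, adjusted p = 0.000169), and the difference between chemistries was -1.79 ± 0.17 (adjusted p = 0.000546). Beta-like cells lay below alpha-like cells in 5 of 6 libraries. In edgeR's quasi-likelihood test of this pair, with 8.97% of all genes called, *Rbp4* was the only member tested and was not called, since its change of -0.83 ± 0.18 (adjusted p = 0.00224) was less than 2-fold. Its unadjusted p was 0.000252, DESeq2 called 0 members as well, and without the Fev-Cre library, where beta-like cells were the higher (2855 against 2395 CPM), the change was -1.08 and was called.

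**Figure D3:**
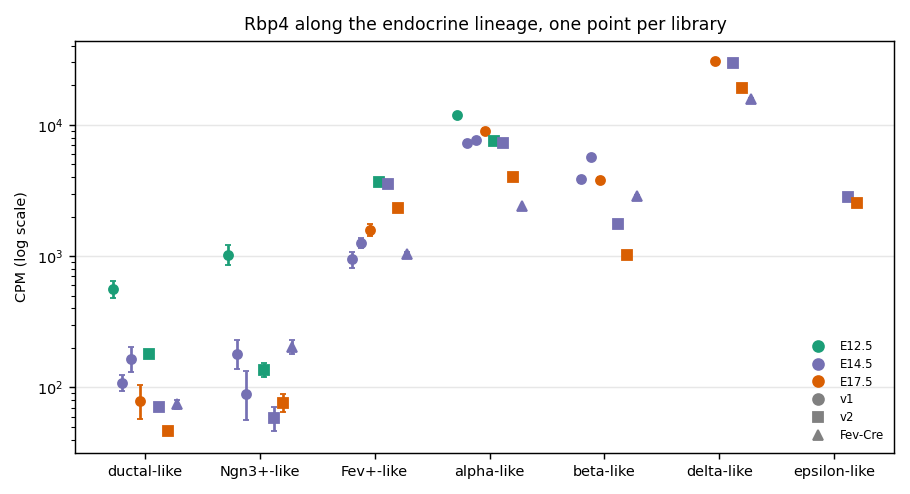
Level of Rbp4 (CPM, log axis) in ductal-like cells and the classes of the endocrine lineage, with 1 point per library and bars for the exact 95% Poisson interval. Fev+-like cells (943 to 3703 CPM) lie above Ngn3+-like cells of the same library, and the 4 delta-like points lie between 15630 and 30570 CPM.

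Outside the endocrine lineage, acinar-like cells held 26.6 to 1121 CPM of *Rbp4* and ductal-like cells 46.5 to 560 CPM. Acinar-like cells were the higher by 1.54 ± 0.25 (adjusted p = 0.000222), in 7 of 8 libraries, with v2 E17.5 the other way. The 9 pan-endocrine markers also summed higher in acinar-like than in ductal-like cells in 7 of 8 libraries, at 22.5 to 1678 CPM against 13.3 to 235 CPM over all 8, with 1 to 9 and 0 to 4 of them above 10 CPM and at most 3 and 7 at 0. Immune-like cells gave 0 to 95.4 CPM, and at v2 E17.5 both acinar-like (26.6 CPM) and ductal-like (46.5 CPM) cells were below the 48.1 CPM of immune-like cells. The share of cells with an *Rbp4* UMI there, thinned to 3000 UMIs, went the other way, at 8.11% of acinar-like (interval 6.95 to 9.40%) and 11.0% of ductal-like cells (9.75 to 12.3%) against 3.44% of immune-like cells (2.64 to 4.41%), so no order between these classes is read from either measure. Unthinned shares were 21.9%, 32.4% and 7.81%, at median depths of 8780, 12507 and 8164 UMIs. In the v1 E17.5 library, where acinar-like cells held 714 CPM of *Rbp4* (38 cells), 9 of 9 pan-endocrine markers were above 10 CPM in them (1678 CPM summed). The part of these markers in the level and in the difference was not tested. Other mesenchyme, at 4.15 to 43.1 CPM, lay below exocrine epithelium (-3.58 ± 0.65, adjusted p = 0.000427). Mesothelial-like cells exceeded other mesenchyme by 0.78 ± 0.22 (adjusted p = 0.0137), which is less than 2-fold. This is an average over libraries from 0.997 to 4.26 times, with mesothelial-like cells higher in 7 of 8. The v2 E17.5 wells held 151 and 155 CPM in mesothelial-like cells, against 54.1 and 16.2 CPM in other mesenchyme. At E17.5 mesothelial-like cells also stood above ductal-like cells in both chemistries, and above acinar-like cells in v2 but not in v1.

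*Stra6*, the receptor for RBP4, was sparse. Other mesenchyme held 1.40 to 16.2 CPM, mesothelial-like cells 0 to 13.8 CPM and acinar-like cells 0 to 22.1 CPM. Other mesenchyme exceeded exocrine epithelium by 1.81 ± 0.52 (adjusted p = 0.00983), and 4 of 17 alternatives lost this call (1.38 to 1.54, adjusted p from 0.0504 without the Fev-Cre library to 0.128 in the v2 and Fev-Cre libraries alone). Mesothelial-like cells were lower than other mesenchyme in 6 of 8 libraries (-1.17 ± 0.41, adjusted p = 0.0397), a call that did not hold in 11 of the alternatives. The libraries that went the other way were both of E17.5, at 5.50 against 1.40 CPM in v1 (1 and 4 UMIs) and 13.8 against 3.12 CPM in v2 (231 and 2 UMIs). VSM-like cells were lower at -2.30 ± 0.50 (adjusted p = 0.00762), and the v1 libraries alone gave -1.38 (adjusted p = 0.121). Ngn3+-like cells exceeded ductal-like cells by 1.56 ± 0.40 (adjusted p = 0.00546) on 0 to 12 UMIs a library.

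*Crabp1*, a cytoplasmic retinoic acid-binding protein, was abundant in both mesothelial-like cells and other mesenchyme before E17.5. Mesothelial-like cells held 127 CPM at v1 E12.5, 189 and 192 CPM at E14.5 (mean 191 ± 2.02, SD, n = 2) and 11.0 CPM at E17.5. The v2 libraries held 143, 185 and 4.79 CPM, and the Fev-Cre library 228 CPM. Other mesenchyme held 88.9, 187, 218 and 159 CPM in v1, 57.8, 95.4 and 23.4 CPM in v2 and 86.7 CPM in the Fev-Cre library. The classes differed by 0.28 ± 0.36 (adjusted p = 0.586), with mesothelial-like cells higher in 5 libraries, both of E12.5 among them, and lower in 3, both of E17.5 among them. VSM-like cells were lower than other mesenchyme in 8 of 8 libraries (-1.62 ± 0.33, adjusted p = 0.00525). Other mesenchyme exceeded exocrine epithelium by 4.36 ± 0.44 (adjusted p = 2.87e-06). Acinar-like cells, at 0.549 to 16.3 CPM, exceeded ductal-like cells (2.50 ± 0.40, adjusted p = 0.000247). The 7 mesenchymal markers summed higher in acinar-like cells in 6 of 8 libraries and lower in both E17.5 libraries (333 to 4308 CPM against 1023 to 2795 CPM, at most 2 and 1 at 0), and their part in this difference was not tested.

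*Crabp2*, which delivers retinoic acid to its nuclear receptors, was highest in mesothelial-like cells among the compared classes. They held 99.2 CPM at v1 E12.5, 23.8 and 38.8 CPM at E14.5 and 11.0 CPM at E17.5. The v2 libraries held 66.8, 34.4 and 5.75 CPM and the Fev-Cre library 36.0 CPM. Other mesenchyme was lower in 8 of 8 libraries, with a difference of 1.14 ± 0.19 (adjusted p = 0.000322) that was 0.86 (adjusted p = 0.0629) in the v2 and Fev-Cre libraries alone. Other mesenchyme in turn exceeded VSM-like cells (VSM minus mesenchyme -2.49 ± 0.29, adjusted p = 8.9e-05) and exocrine epithelium (3.67 ± 0.32, adjusted p = 7.15e-07). Ngn3+-like cells exceeded ductal-like cells by 1.35 ± 0.46 (adjusted p = 0.0223), a call lost in 3 of 13 alternatives (without the Fev-Cre library, with Scrublet doublets and in the v2 and Fev-Cre libraries alone, adjusted p 0.0514 to 0.0693).

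*Cyp26b1*, the retinoic acid hydroxylase, was the rarest of the 9. Other mesenchyme held 8.36, 8.57, 6.58 and 2.80 CPM in the v1 libraries (119, 28, 68 and 8 UMIs), 2.49, 2.33 and 0 CPM in v2 (16, 1 and 0 UMIs) and 5.56 CPM in the Fev-Cre library. In v2 the E14.5 and E17.5 levels rest on few UMIs. At E12.5 the v2 interval (1.42 to 4.04 CPM) lay below the v1 interval (6.93 to 10.0 CPM). The part of the CD140a depletion in this difference was not tested. Mesothelial-like cells held 0 to 1.1 CPM and were lower than other mesenchyme in 7 of 8 libraries (-3.15 ± 0.41, adjusted p = 5.3e-05). VSM-like cells were lower as well (-3.38 ± 0.67, adjusted p = 0.00415), and exocrine epithelium was lower by 5.12 ± 0.42 on the log2 scale (adjusted p = 5e-07). Endothelial-like cells, which no comparison used, stood above other mesenchyme in v1 E12.5 (14.1 CPM on 2 UMIs, interval 1.70 to 50.8) and in v2 at 2.99 CPM (E12.5, 6 UMIs), 5.59 CPM (E14.5, 2 UMIs) and 2.54 CPM (E17.5, 6 UMIs). Each of these intervals overlapped that of other mesenchyme in the same library.

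Stage was compared between E17.5 and E12.5, with the E14.5 libraries in the fit and chemistry as a term. In mesothelial-like cells 6 of 8 members tested were called, where 18.7% of all genes were called (11.6% higher and 7.15% lower at E17.5). *Aldh1a2* rose by 2.29 ± 0.28 (adjusted p = 3.77e-05), from 72.3 to 374 CPM in v1 and from 83.4 to 349 CPM in v2, and *Rbp4* rose by 3.69 ± 0.31 (adjusted p = 1.03e-06), from 8.36 to 132 CPM in v1 and from 14.3 to 153 CPM in v2. *Crabp1* fell by 4.65 on the log2 scale (SE 0.37, adjusted p = 6.9e-07), and *Crabp2* fell by 3.56 (SE 0.42, adjusted p = 2.66e-05). Both genes were at 2 UMIs in the v1 E17.5 mesothelial-like cells, only 48 cells, where 11.0 CPM has an interval of 1.33 to 39.7. Without the v2 E17.5 library 3 members were called, and *Crabp2* was not among them (-2.91, adjusted p = 0.0875). *Aldh1a1* (1.49 ± 0.48, adjusted p = 0.0383) and *Dhrs3* (1.05 ± 0.35, adjusted p = 0.0431) were called but lost in 7 and 6 of the alternatives, and *Stra6* (1.92 ± 0.69, adjusted p = 0.0644) and *Rdh10* (-0.28 ± 0.27, adjusted p = 0.521) were not called. For *Stra6*, 14 alternatives gave 0.02 to 2.47 and 6 of them called it. The markers that name the class rose with stage as well: the 10 mesothelial markers summed to 1633 CPM at E12.5 and 7787 CPM at E17.5 in v1, and to 1352 and 6868 CPM in v2, and their part in the rise of *Aldh1a2* was not tested. Summed over 12 markers, acinar transcripts in mesothelial-like cells went from 170 to 374 CPM in v1 (1 and 4 markers above 10 CPM, 6 and 5 at 0) and from 281 to 4497 CPM in v2 (6 and 8 above 10 CPM, 1 and 0 at 0), and their part in the rise of *Rbp4* and *Aldh1a1* was not tested. The 9 pan-endocrine markers in mesothelial-like cells summed to 411 CPM at E12.5 and 379 CPM at E17.5 in v1, and to 260 and 266 CPM in v2. Their part was not tested either. The 8 hepatocyte markers summed to at most 6.06 CPM in mesothelial-like cells of any library, with none above 10 CPM.

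**Figure D4:**
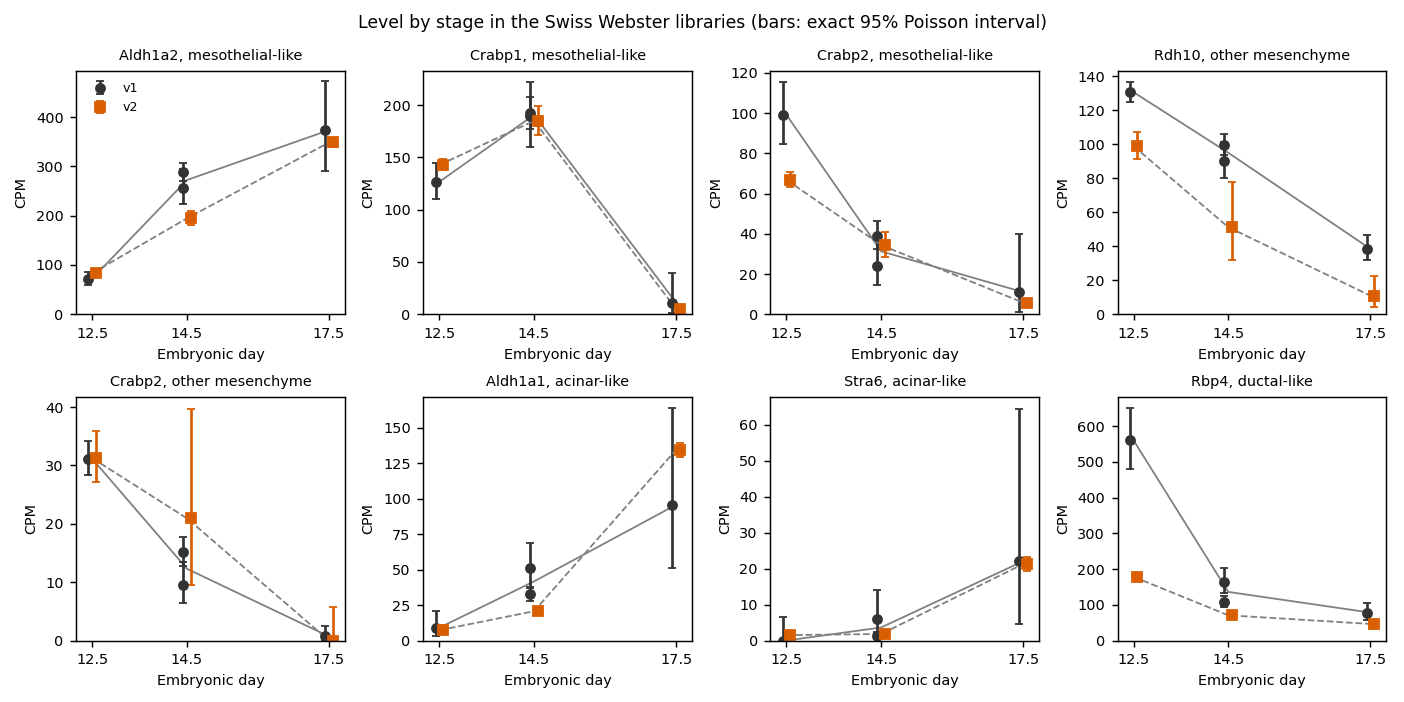
Level (CPM) of selected member and class pairs by embryonic day in the Swiss Webster libraries, with circles and solid lines for v1 and squares and dashed lines for v2, lines through the mean, and bars for the exact 95% Poisson interval. Aldh1a2 rises in mesothelial-like cells (72.3 to 374 CPM in v1) while Crabp1 falls there (127 to 11.0 CPM in v1).

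In other mesenchyme 5 of 9 members were called between these stages, where 12.9% of all genes were called (9.02% higher and 3.88% lower). *Rdh10* fell by 2.04 (SE 0.36, adjusted p = 0.00495), from 131 to 38.4 CPM in v1 and from 98.9 to 10.9 CPM in v2. *Crabp2* fell by 5.46 (SE 0.69, adjusted p = 0.000835), to 2 and 0 UMIs in the E17.5 libraries (intervals 0.0847 to 2.53 CPM in v1 and up to 5.76 CPM in v2). *Aldh1a1* rose by 5.44 ± 0.87 (adjusted p = 0.00287), *Dhrs3* by 3.83 ± 0.82 (adjusted p = 0.0132) and *Rbp4* by 2.42 ± 0.50 (adjusted p = 0.0111). *Rbp4* went from 4.15 to 34.3 CPM in v1 and from 13.7 to 35.9 CPM in v2, where the v2 E17.5 value rests on 69 cells with 54.1 and 16.2 CPM in the wells. Immune-like cells held 9.85 CPM in v1 E17.5 and 48.1 CPM in v2 E17.5, so the v2 value lies below the immune-like level. *Rbp4* lost its call in 4 of 14 alternatives, without the v1 E12.5 library (1.6, adjusted p = 0.14) or the v1 E17.5 library (1.76, adjusted p = 0.146), with Scrublet doublets (0.80, adjusted p = 0.674) and without the chemistry term (2.12, adjusted p = 0.092). *Dhrs3* lost it in 4 as well, without the v2 E17.5 library (2.42, adjusted p = 0.192), the v1 E12.5 library (3.69, adjusted p = 0.0847) or the v2 E12.5 library (4.08, adjusted p = 0.0581) and without the chemistry term (4.06, adjusted p = 0.0626). With Scrublet doublets *Rdh10* (-1.27, adjusted p = 0.0547) and *Aldh1a1* (4.12, adjusted p = 0.0505) were not called either, and without the v1 E12.5 library 3 members were called. Over the same stages the 12 acinar markers in other mesenchyme summed to 208 and 367 CPM in v1 (2 and 3 above 10 CPM, 2 and 3 at 0) and to 279 and 2064 CPM in v2 (6 and 8 above 10 CPM, 3 and 0 at 0). The 9 pan-endocrine markers summed to 130 and 772 CPM in v1 and to 182 and 571 CPM in v2. Their part in the rise of *Aldh1a1* and *Rbp4* was not tested. *Stra6* (-1.98 ± 0.68, adjusted p = 0.0874) and *Cyp26b1* (-1.53 ± 0.67, adjusted p = 0.172) did not pass the test. Nor did *Aldh1a2* (0.46) and *Crabp1* (0.24), and the direction of both turned when the v1 E12.5 or v1 E17.5 library was left out.

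In acinar-like cells 4 of 6 members tested were called, where 18.3% of all genes were called (9.94% higher and 8.37% lower). *Aldh1a1* rose by 4.66 ± 0.46 (adjusted p = 5.98e-09), and *Stra6* rose by 4.70 ± 0.74 (adjusted p = 2.56e-05), to 22.1 CPM in v1 E17.5 on 3 UMIs (interval 4.55 to 64.5) and to 21.3 CPM in v2 E17.5 on 465 UMIs. The 12 acinar markers rose with stage too, from 18343 to 175079 CPM in v1 and from 14213 to 189321 CPM in v2 when summed, and their part in these changes was not tested. The 7 mesenchymal markers fell over the same stages, from 4308 to 611 CPM in v1 and from 2301 to 333 CPM in v2, and their part in the fall of *Crabp1*, a gene abundant in mesenchyme, was not tested. *Dhrs3* rose by 2.33 ± 0.53 (adjusted p = 0.00221) and *Crabp1* fell by 3.75 (SE 0.87, adjusted p = 0.00251). Without the v2 E17.5 library only *Aldh1a1* was called, at *Stra6* 4.46 (adjusted p = 0.263), *Dhrs3* 2.13 (adjusted p = 0.453) and *Crabp1* -0.68 (adjusted p = 0.844). Without the v2 E12.5 library *Dhrs3* and *Crabp1* were not called either. *Rbp4* gave -1.50 ± 0.55 (adjusted p = 0.0531), with -3.72 to -0.11 over 14 alternatives, of which 8 called it. It stood at 1121 and 714 CPM in v1 at E12.5 and E17.5 and at 528 and 26.6 CPM in v2, and the v1 E17.5 value comes from the 38 cells whose pan-endocrine markers summed to 1678 CPM. The 8 hepatocyte markers in acinar-like cells went from 165 to 7.36 CPM in v1 and from 111 to 11.8 CPM in v2, and their part in these levels was not tested. *Rdh10* gave 0.98 ± 0.72 (adjusted p = 0.37).

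In ductal-like cells 2 of 4 members tested were called, where 6.45% of all genes were called (4.51% higher and 1.94% lower). *Rbp4* fell by 2.24 (SE 0.33, adjusted p = 0.00103), from 560 to 78.2 CPM in v1 and from 178 to 46.5 CPM in v2. Over the same stages the 8 hepatocyte markers in these cells went from 133 to 63.6 CPM in v1 (2 and 1 above 10 CPM, 5 and 4 at 0) and from 54.2 to 39.1 CPM in v2 (2 and 1 above 10 CPM, 0 and 1 at 0) when summed. The 12 acinar markers went from 1923 to 365 CPM in v1 and from 884 to 2698 CPM in v2. Their part in the fall of *Rbp4* was not tested. *Dhrs3* rose by 1.76 ± 0.47 (adjusted p = 0.0435) and lost its call in 7 alternatives. The count of members called ran from 1 to 5 when each library was left out, with 5 called without the first v1 E14.5 library, 4 without the v1 E17.5 library and 1 without the v2 E12.5 or the v2 E17.5 library. In alpha-like cells *Rbp4*, the only member tested, changed by -0.58 ± 0.37 (adjusted p = 0.453 and unadjusted p = 0.136 in edgeR's quasi-likelihood test). That edgeR test called 4.83% of all genes. DESeq2 called 0 members as well.

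A wider list of 62 retinoid genes (receptors, binding proteins, enzymes and known targets) held 61 that the matrices name. Of 43 tested between mesothelial-like cells and other mesenchyme, 8 were higher and 3 lower (25.6%, against 18.7% of all genes), with a median log2 change of 0.01 against -0.04 over all genes. *Rarres1* (5.84 ± 0.48), *Aldh1a7* (4.84 ± 0.71), *Tgm2* (4.41 ± 0.22), *Dhrs9* (4.22 ± 1.02) and *Gata4* (4.18 ± 0.32) changed most. *Rarb*, a retinoic acid receptor that is itself a target of the pathway, was higher in mesothelial-like cells by 1.08 ± 0.21 (adjusted p = 0.00143), at 30.8 to 77.7 CPM against 6.24 to 56.3 CPM. In VSM-like cells 4 of 35 were higher and 2 lower (17.1%, against 5.76% of all genes), led by *Rdh5* (1.58 ± 0.30), a retinol dehydrogenase.

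Between other mesenchyme and exocrine epithelium 14 of 47 list genes were higher in mesenchyme and 8 lower (46.8%, against 34.4% of all genes), with a median of 0.44 against -0.02 over all genes. *Hic1*, *Osr1*, *Hoxa5* and *Hoxb5* were the most mesenchymal (6.96 ± 0.42, 6.86 ± 0.32, 6.68 ± 0.35 and 6.61 ± 0.47), and *Ttr*, which encodes the partner of RBP4 in plasma, the most epithelial (-5.95 ± 0.57). *Rarb* exceeded its epithelial level by 4.59 ± 0.41. Acinar-like cells were higher than ductal-like cells in 4 and lower in 8 of 43 genes (27.9%, against 15.8% of all genes). From Ngn3+-like to Fev+-like cells 4 of 28 list genes were higher and 5 lower (32.1%, against 20.3% of all genes). Between Ngn3+-like and ductal-like cells 3 of 35 were higher and 9 lower (34.3%, against 27.1% of all genes). Alpha-like and beta-like cells summed exceeded Fev+-like cells in 4 of 28 with 0 lower (14.3%, against 6.61%), and beta-like cells differed from alpha-like cells in 7 of 24 (29.2%, against 8.97%).

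Across stages the list gave 7 higher and 8 lower of 40 in mesothelial-like cells (37.5%, against 18.7% of all genes) and 6 and 4 of 38 in other mesenchyme (26.3%, against 12.9%). It gave 7 and 2 of 36 in acinar-like cells (25.0%, against 18.3%), 3 and 1 of 29 in ductal-like cells (13.8%, against 6.45%) and 3 and 1 of 16 in alpha-like cells (25.0%, against 4.83%). In mesothelial-like cells *Dhrs9*, *Rarres1* and *Rarres2* rose most (10.31, 6.63 and 5.66), and *Hoxb1* and *Nr2f1* fell most (-5.18 and -3.29).

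Likeness of pattern was measured as Pearson's r of log CPM over 101 profiles of a class in a library, which share libraries and depth, against 8605 genes. *Rspo1* (0.955), *Ildr2* (0.942) and *Rpp25* (0.941) were most like *Aldh1a2*, and *Ffar4* (0.943), *Abcc8* (0.934) and *Pyy* (0.924) most like *Rbp4*. *Rspo3* (0.899), *Hoxb6* (0.875) and *Clmp* (0.873) were most like *Crabp1*, *Hoxb6* (0.847), *Bnc2* (0.846) and *Rarb* (0.845) most like *Rdh10*, and *Bnc2* (0.816) and *Ntm* (0.797) most like *Crabp2*. The digestive enzyme genes *Pnliprp2* (0.773) and *Try10* (0.761) with *Erp27* (0.761) were most like *Aldh1a1*, and *Ptgs1* (0.780), *Il18* (0.759) and *Gas6* (0.727) most like *Dhrs3*. *Stra6* and *Cyp26b1* had no close match, at most 0.50 with *Nxn* and 0.686 with *Col23a1*. Among the members themselves *Rdh10* and *Crabp1* were closest (0.84).

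The promoters of the members were read for the core motif of the retinoic acid receptors, because a match would place a receptor motif beside these levels. RefSeq promoters (GRCm38.p6, 250 bases before to 50 after a start) were found for 7 of the 9 members. None held AGGTCA (16.3% of 32851 promoters hold it on either strand), GGTTCA (10.4%) or a direct repeat of such a core spaced by 1, 2 or 5 bases (DR1 0.222%, DR2 0.268%, DR5 0.0974%). GGGTCA, held by 13.7% of promoters, was present in 2 members in the reverse orientation, and AGTTCA, held by 14.0%, in *Stra6*, 15 bases after one of its starts in the forward orientation. These stretches are shown because *Aldh1a1* and *Rbp4* are the acinar and endocrine members, with the match in capitals:
Aldh1a1 (chr19:20601907-20601936, + strand): ccgatatgcaaaTGACCCttagtgcatgca
Rbp4 (chr19:38125357-38125386, - strand): aagaataaatatTGACCCaaacagcaccac
RefSeq lists more than one start for each of these genes, and the matches lie 49 bases before the downstream start of *Aldh1a1*, which is inside the gene as GENCODE draws it, and 53 before the upstream start of *Rbp4*. A match is a description only. On the same build GENCODE places *Aldh1a1* at chr19:20492715-20643465 and *Rbp4* at chr19:38116629-38125281, *Aldh1a2* at chr9:71215789-71296243 and *Rdh10* at chr1:16105774-16133734.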

How the data were processed

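The deposited matrices hold counts of UMIs per gene and cell. The authors made them with Cell Ranger (1.1 for v1, 2.1 for v2) against mm10, per the labels. The reference of the Fev-Cre library also held eGFP and tdTomato, and its matrix without reporters was not used. Here cells with at least 200 genes and genes in at least 3 cells were kept. Cells were clustered per kit (scanpy 1.11.5, 2000 variable genes, 20 components, 20 neighbours, Leiden resolution 1) and named from markers, by thresholds set after the clusters were seen. The variable genes left out the retinoid list, apart from any list gene that was also a class marker. Cells of a second class were left out as doublets, and classes under 20 cells were not used on their own. The sum with delta-like and epsilon-like cells added also took in such small classes (6 delta-like and 17 epsilon-like cells in the first v1 E14.5 library). Members and lists were chosen with earlier results of these data known. Counts were summed per class and library, and both E17.5 v2 wells were summed as 1 library. Totals per matrix, with the E17.5 v2 wells counted apart, were 15671934 to 127151679 UMIs, so a gene at a few CPM rests on few UMIs in a small class. Class comparisons used edgeR 4.0.16 (quasi-likelihood test, TMM, Benjamini-Hochberg) with the library as a block, and stage comparisons used chemistry as a term and all stages, 13 comparisons in all. Samples of 2 classes from one library come from the same pool, and same-library deviations from class means correlated at 0.2 to 0.84. Named genes were the 9 members, up to 5 called list genes per comparison, receptors and carriers above 50 CPM, and the 3 genes most like each member. Some genes that this rule names are not reported here. On simulated counts with known changes, for mesothelial-like against other mesenchyme (12536 genes), 60.9% of 2-fold and 88.7% of 4-fold changes were recovered. For beta-like against alpha-like (8474 genes) these shares were 90.2% and 100%, and for stage in ductal-like cells (10179 genes) 7.78% and 76.2%. False calls made up 6.96%, 12.4% and 12.1% of the calls in these simulations, in that order, against a nominal 5%. Alternatives were DESeq2 1.42.0, other size factors and filters, Leiden resolution 2, Scrublet doublets, clustering and testing on separate UMIs, each kit alone, no block and leaving out each library. The last was added for levels after seeing the data, as was adding delta-like and epsilon-like cells to the alpha-like and beta-like sum.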

Additional observations from a re-analysis of the deposited data

Results flagged for a closer look

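The step of *Rbp4* from Fev+-like cells to alpha-like and beta-like cells summed differed between chemistries. The log2 change in the v2 and Fev-Cre libraries minus that in the v1 libraries was -1.60 ± 0.23 (adjusted p = 0.0338). With delta-like and epsilon-like cells added it was -1.79 ± 0.17 (adjusted p = 0.000546). The v2 side held an E12.5 library and the v1 side did not. Chemistry, gate, stage and, for the Fev-Cre library, strain cannot be told apart here. Unnamed endocrine cells, left out, stood in the v2 and Fev-Cre libraries alone (128 to 701 cells), and their part was not tested. Further signals, on more than 3 UMIs and with the lower end of the counting interval above the compared classes (the mesothelial-like one aside) in at least 2 libraries, stood in classes that no comparison used. *Dhrs3* reached 50.9 CPM in endothelial-like cells and was above every compared class other than the mesothelial-like one in 3 of 8 libraries. *Dhrs3* reached 85.6 CPM in immune-like cells and was above those classes in 5 of 8 libraries. *Crabp2* reached 41.9 CPM in neural-like cells and was above those classes in 2 of 4 libraries. In 1 library each, the rule on UMIs and interval was met by *Stra6* in neural-like cells (9.37 CPM on 81 UMIs at v2 E12.5), *Cyp26b1* in endothelial-like cells (2.54 CPM on 6 UMIs at v2 E17.5) and *Aldh1a2* in erythroid-like cells (11.0 CPM on 25 UMIs at v2 E14.5). That rule sets the lower end of the interval against the level, not the interval, of the compared classes. Other mesenchyme held 69 cells and 0 *Cyp26b1* UMIs at v2 E17.5 (up to 5.76 CPM), and 83 cells at v2 E14.5. No group held 4 or more labelled replicates, so no search for single outlying samples was possible.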

How the results depend on the processing

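No called member turned its direction under any alternative run. The counts of called members below are given without the share of all genes called in the same run. A drop in them is therefore not read as particular to the members. Nor do the counts part members tested and not called from members that fell under the filter on low counts. Same-library classes are paired through their pool. Without the replicate block the count of members called was 2 for mesothelial-like against other mesenchyme, 2 for VSM-like against other mesenchyme, 1 for Ngn3+-like against ductal-like and 1 for Fev+-like against Ngn3+-like cells, while *Aldh1a2* in mesothelial-like cells gave 4.26. The replicate block of label batch in the stage comparisons lost no called member. The v2 and Fev-Cre libraries alone gave 3 members for the mesothelial-like and 3 for the VSM-like comparison and 0 for alpha-like and beta-like cells against Fev+-like cells, and the v1 libraries alone gave 0 for Ngn3+-like against ductal-like and 1 for Fev+-like against Ngn3+-like cells. Scrublet doublets gave 2, 1 and 3 members for Ngn3+-like against ductal-like cells, Fev+-like against Ngn3+-like cells and stage in other mesenchyme, separate UMIs gave 2 and 1 for the first pair of these, and Leiden resolution 2 gave 1 for Fev+-like against Ngn3+-like cells and 1 for stage in ductal-like cells. Without the kit term the count was 3 for stage in other mesenchyme and 1 in ductal-like cells, and without a filter 4 in ductal-like cells. Leaving out each library gave 1 to 3 members for Fev+-like against Ngn3+-like, 0 to 1 for beta-like against alpha-like, and for stage 3 to 7 in mesothelial-like, 3 to 5 in other mesenchyme, 1 to 6 in acinar-like and 1 to 5 in ductal-like cells. Changes that were not called turned direction as follows. *Rdh10* in mesothelial-like cells gave 0.092 with DESeq2, 0.092 with resolution 2, 0.047 on separate UMIs, 0.045 in v1 alone, -0.199 without the v2 E17.5 library and -0.154 to 0.144 without each other library. *Crabp1* in the same comparison gave -0.061 with DESeq2 and -0.23 in v1 alone, and *Aldh1a1* in VSM-like cells gave -0.086 with resolution 2 and -0.33 in v2 and Fev-Cre alone. *Crabp1* by stage in other mesenchyme gave -0.05 with resolution 2, -0.44 with Scrublet and -1.13 to 0.759 without each library but v2 E17.5, which gave 0.978. Without each library *Aldh1a2* by stage in other mesenchyme ran from -0.59 to 1.01 (it was called higher at resolution 2, 1.77, and with Scrublet, 2.69), *Rdh10* in acinar-like against ductal-like cells from -0.111 to 0.129 (-0.214 without v2 E17.5), and *Dhrs3* in Ngn3+-like against ductal-like cells from -1.08 to 0.031. Thinned to 1000 UMIs, the median share of cells with a UMI was 22.4% for *Aldh1a2* in mesothelial-like cells and 0.549% for *Cyp26b1* in other mesenchyme. For these changes the cause was not tested.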
